A study of Mus musculus with 10 samples.

Results

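Replication and mitosis genes were followed through sorted mammary epithelial cells of female mice, as a measure of how much cell-cycle transcript each sorted population held. The members were 41 genes chosen by symbol, 19 that act in or at the entry to S phase and 22 that act in G2 and M phase, out of 24000 rows in each of the 6 deposited comparison tables. All 41 symbols were found in every table. The mice were wild type (WT) or knockout (KO) for Bptf, which encodes the largest subunit of the chromatin remodeller NURF, and tamoxifen (a total of 15 mg per kg) was given to every group before isolation. The 10 libraries made 5 groups of 2, which were WT luminal, KO luminal, WT myoepithelial (basal), KO myoepithelial and KO Bsecs, a population whose name the labels do not spell out. No Cre driver, age or sorting marker is given in the sources used here.

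The cell cycle copies the genome in S phase and divides it in M phase. Origins are licensed by loading the Mcm2 to Mcm7 helicase onto DNA, and E2F factors switch on the genes for this step, for nucleotide supply and for the fork itself. Genes of G2 and M phase are switched on later, largely through the CHR element and CCAAT boxes of their promoters, and their products (cyclin B with Cdk1, the Aurora and Polo kinases, the kinesins, the checkpoint and the cytokinesis machinery) are scarce in cells that do not divide. In the adult gland outside pregnancy most epithelial cells are at rest.

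Each group is represented by 1 column of means and no library by its own, so no difference below has a replicate check, and every interval is a 95% interval of counting error. Whole counts were recovered from the means, and totals ran from 2036681 to 3840462. The ribosomal RNA precursor Rn45s took 9.76% to 32.2% of them, least in larger basal cells and most in Bsecs. Counts of single genes are given unscaled. Their order can differ from that of levels on the common scale, whose factors ran from 0.753 (smaller basal) to 1.38 (KO luminal). The myoepithelial columns carry opposite genotype names in different tables, so they are named smaller basal and larger basal cells by their totals, and no direction between them was read as a genotype effect. The libraries titled KO luminal have a source label that names WT mice. Bptf itself had 420 to 1018 counts, which leaves the deletion unchecked, since reads of all exons are summed. The 8 luminal markers summed to 24630 and 20430 counts per 1000000 (CPM, total without Rn45s) in WT and KO luminal cells but to 1526 (larger) and 1550 (smaller) in the basal columns, and the 8 basal markers to 79.9 and 299.5 against 11160 and 18720. Bsecs had 6356 and 6704, but not from every gene of either list. Of the basal markers Krt5, Krt14 and Krt17 had 3139 to 8490 counts there and Trp63 95. Acta2, Myh11, Cnn1 and Oxtr had 1 to 137, against 157 to 12512 in the basal columns. Of the luminal markers Krt18, Krt19 and Epcam had 2429 to 6219, Krt8 671, Foxa1 216, Prlr 119, Elf5 1 and Kit 0. Of genes of every cell, Actb had 6490 to 30847 counts, Hprt 123 to 371 and Tbp 45 to 95. Gapdh had only 2 to 25 counts in any column and Eno1 at most 1, so a gene near 0 here cannot be read as not expressed.

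Most members were thinly read. Of the 22 G2 and M phase members, 12 had fewer than 10 counts in every column (54.5%, against 24.3% of the 16673 genes with a count anywhere), and 2 reached 50 counts in any column (9.09%, against 52.7%). Of the 19 S phase members, 3 stayed under 10 counts everywhere and 8 reached 50 in at least 1 column (42.1%). Pcna alone had 50 or more counts in all 5 columns. The smaller basal column had no count for 14 of the 22 G2 and M phase members (63.6%) and for 5 of the 19 S phase members (26.3%). Of the 16673 genes with a count anywhere, 29.3% were at 0 there, and the shares below are of the same genes. Bub1, at 0 in all 5 columns, is kept among the members but is not among those genes. In the larger basal column 8 G2 and M phase members were at 0 (36.4%, beside 16.3% of those genes) and in WT luminal cells 7 (31.8%, beside 21.8%). In Bsecs 6 were (27.3%, near the 25.1% of those genes) and in KO luminal cells 5 (22.7%, beside 16.5%). With bulk RNA, fewer cycling cells and less of each transcript per cell cannot be told apart.

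**Figure D1:**
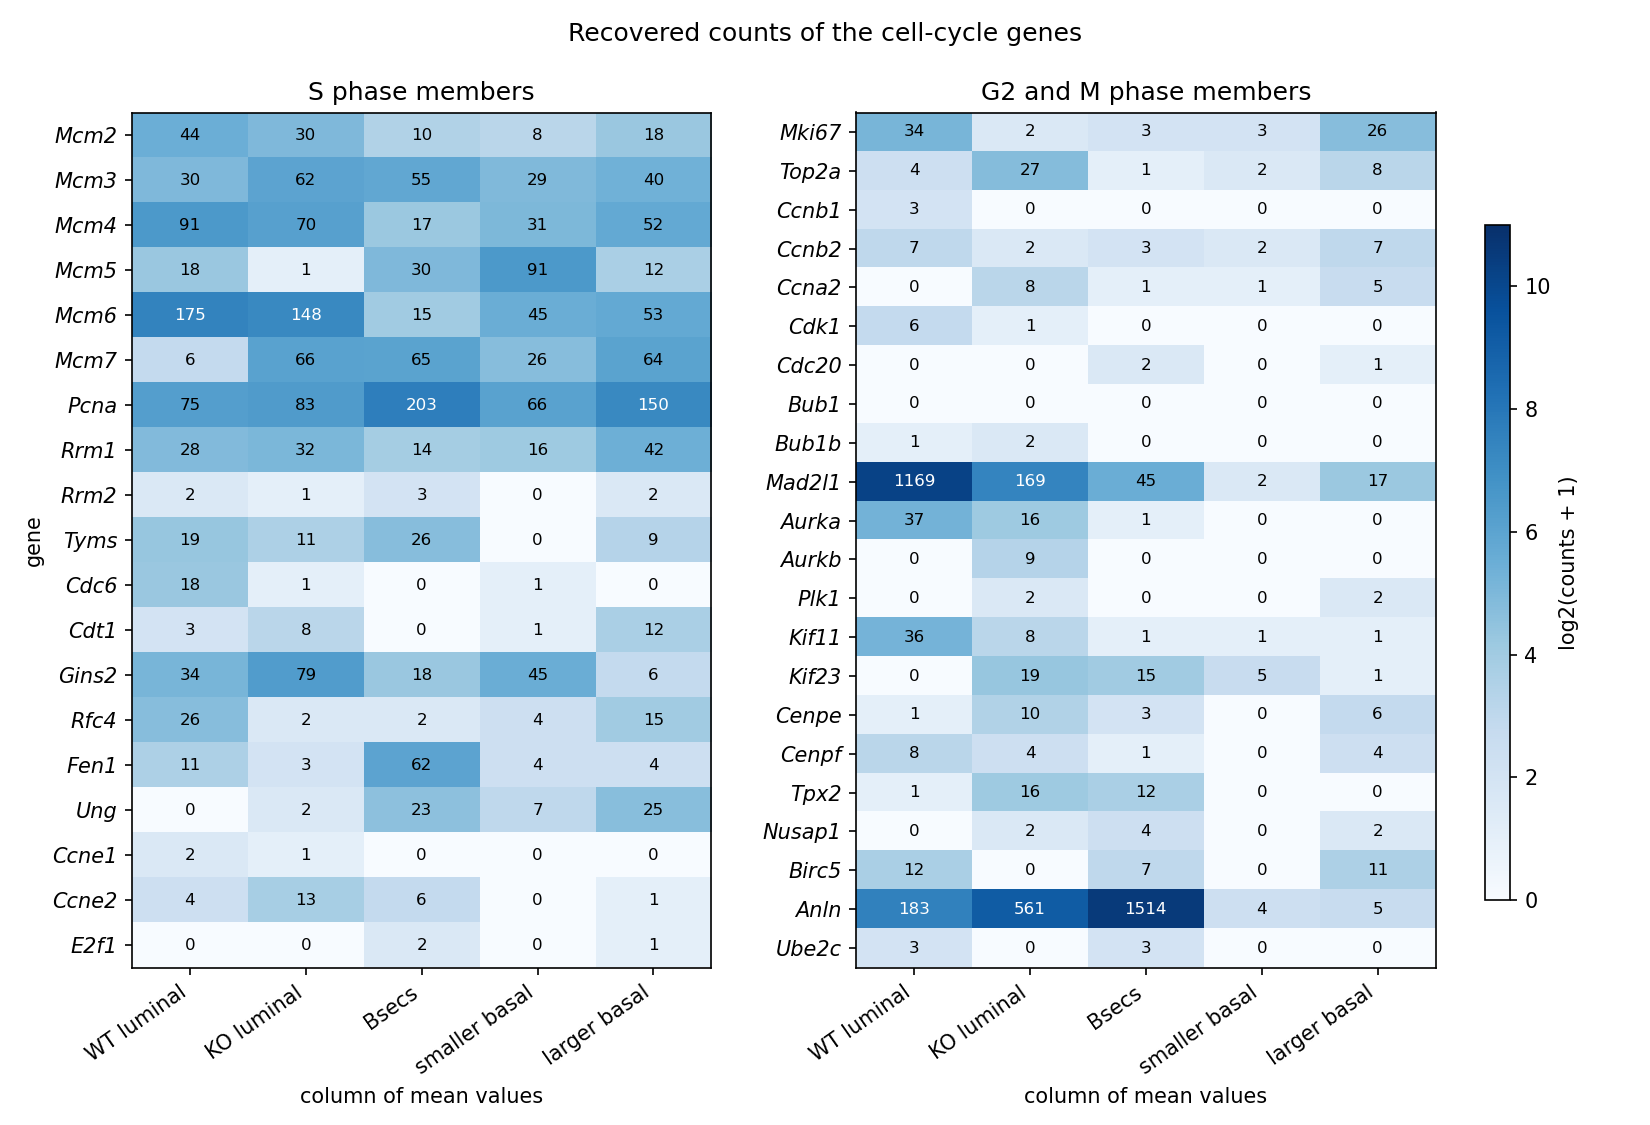
Recovered counts of the 19 S phase members (left) and the 22 G2 and M phase members (right), 1 row per gene and 1 column of the plot per sorted population, shaded by log2(counts + 1). Mad2l1 (1169 counts in WT luminal cells) and Anln (1514 in Bsecs) stand apart from the other G2 and M phase genes, of which none exceeded 37 counts.

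Summed over the 19 genes, S phase transcripts were at much the same level in the 5 populations. The sum was 240.2 CPM (221 to 260.4) in WT luminal cells, 238 (217 to 259) in larger basal cells, 222 (204 to 241) in Bsecs, 219 (197.5 to 242.5) in smaller basal cells and 189.8 (175 to 205.5) in KO luminal cells. KO luminal cells stood lowest, and their interval lay below those of WT luminal cells and of the larger basal column. It overlapped those of Bsecs and the smaller basal column. On the median-of-ratios scale used for levels of single genes KO luminal cells were again lowest, at 443, and Bsecs highest, at 580.4. Bsecs were lowest instead with Rn45s kept in the total (151 CPM against 159.6 in KO luminal cells) and with Pcna left out (140.2 against 164).

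The G2 and M phase sum differed far more, and 2 genes carried it. It was 651 CPM (619.7 to 684) in Bsecs, 617 (586 to 649) in WT luminal cells, 266 (248 to 284) in KO luminal cells, 45.1 (36.5 to 55.05) in larger basal and 11.7 (7.16 to 18.1) in smaller basal cells. Anln made up 93.7% of it in Bsecs and 65.4% in KO luminal cells, and Mad2l1 77.7% of it in WT luminal cells. Without both genes, a split chosen after their values were seen, the other 20 summed to 62.7 (53.2 to 73.5) in WT luminal cells, 39.6 (33.1 to 47.1) in KO luminal cells, 34.8 (27.3 to 43.6) in larger basal cells, 23.0 (17.4 to 29.8) in Bsecs and 8.20 (4.48 to 13.8) in smaller basal cells. Bsecs thus went from the highest sum to one above smaller basal cells alone, although their full sum and that of WT luminal cells overlapped in their intervals and changed places with Rn45s kept in the total (442 against 551.5). The intervals of neighbours in this last order overlapped between KO luminal cells and the larger basal column and between that column and Bsecs. The median count of these 20 genes was 2 in either luminal column, 1 in Bsecs and the larger basal column and 0 in the smaller. The order of the 20-gene sums was the same when the median-of-ratios scale was used (137, 92.5, 71.2, 60.05 and 18.6 for the 20 genes).

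**Figure D2:**
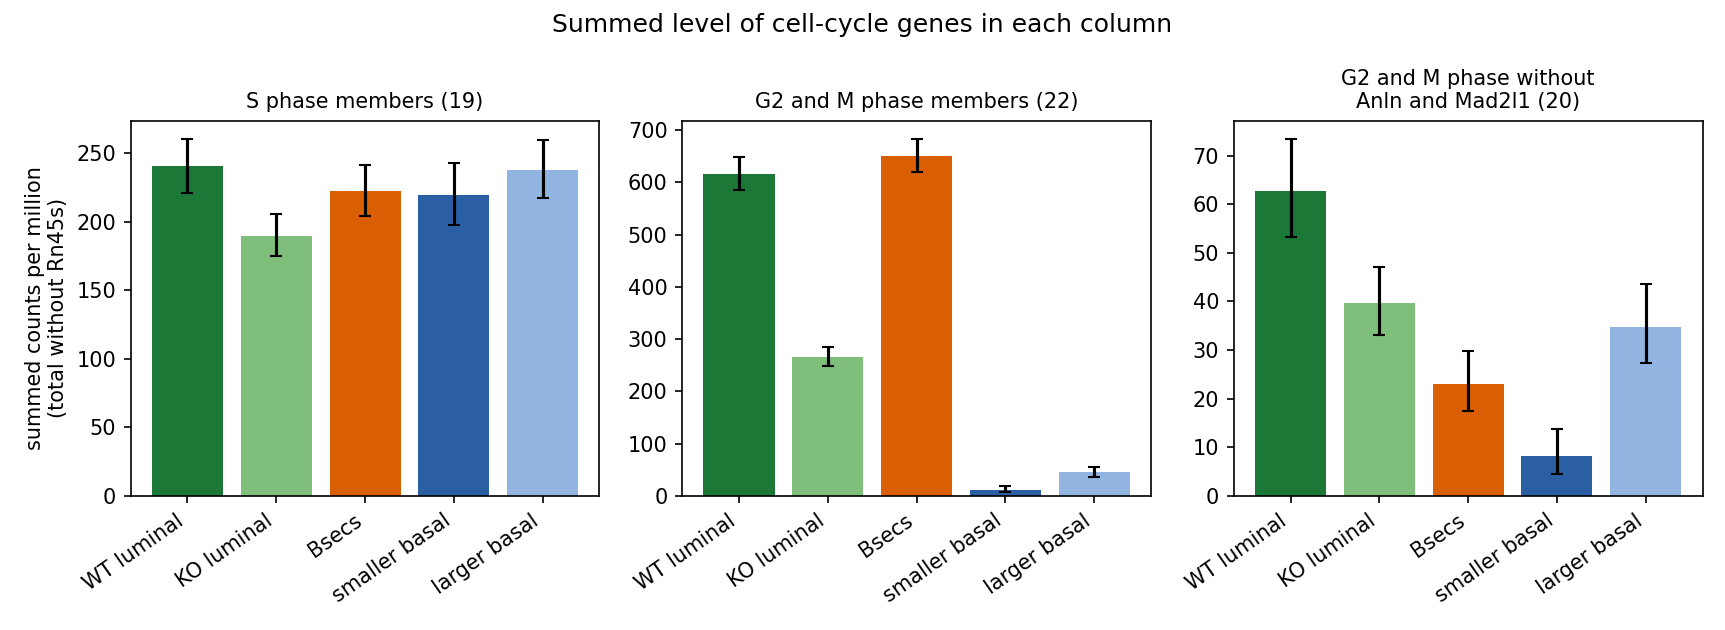
Summed CPM (total without Rn45s) of the S phase members, the G2 and M phase members, and the latter without Anln and Mad2l1, with 1 bar per sorted population and exact Poisson 95% intervals of counting error; the 3 vertical axes differ. The S phase sums lie between 189.8 and 240.2, while the G2 and M phase sums run from 11.7 to 651 and, without the named pair, from 8.20 to 62.7.

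The Mcm2 to Mcm7 genes encode the 6 subunits of 1 ring-shaped helicase, yet their transcripts did not share an order across the populations. Mcm6 had 175 counts in WT luminal cells, 148 in KO luminal cells, 53 in larger basal and 45 in smaller basal cells and 15 in Bsecs. Mcm2 (44, 30, 18, 8 and 10 counts in the same columns) and Mcm4 (91, 70, 52, 31 and 17) were likewise highest in WT luminal cells and low in Bsecs. Mcm7 ran the other way, with 6 counts in WT luminal cells, 66 in KO luminal cells, 64 in larger basal and 26 in smaller basal cells and 65 in Bsecs. Mcm5 was highest in smaller basal cells, at 91 counts, with 30 in Bsecs, 18 in WT luminal cells, 12 in larger basal cells and 1 in KO luminal cells. Mcm3 varied least of the 6, with 29 to 62 counts. Summed over the 6 genes, Bsecs stood lowest at 77.4 CPM (66.8 to 89.1). The other columns ran from 112 (98.5 to 127, larger basal) to 149 (134 to 165, WT luminal). On the common scale the sum was again lowest in Bsecs, at 202, beside 230 in larger basal cells. As levels on the common scale, Mcm5 was at 121 (97.3 to 148) in smaller basal cells and 0.723 (0.0183 to 4.03) in KO luminal cells, and Mcm7 at 68.5 (52.8 to 87.3) in Bsecs and 5.36 (1.97 to 11.7) in WT luminal cells. Exons of Mcm7 overlap those of Ap4m1 and Cops6 on the other strand in GENCODE M21, and without a stated strand setting their reads cannot be told apart.

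**Figure D3:**
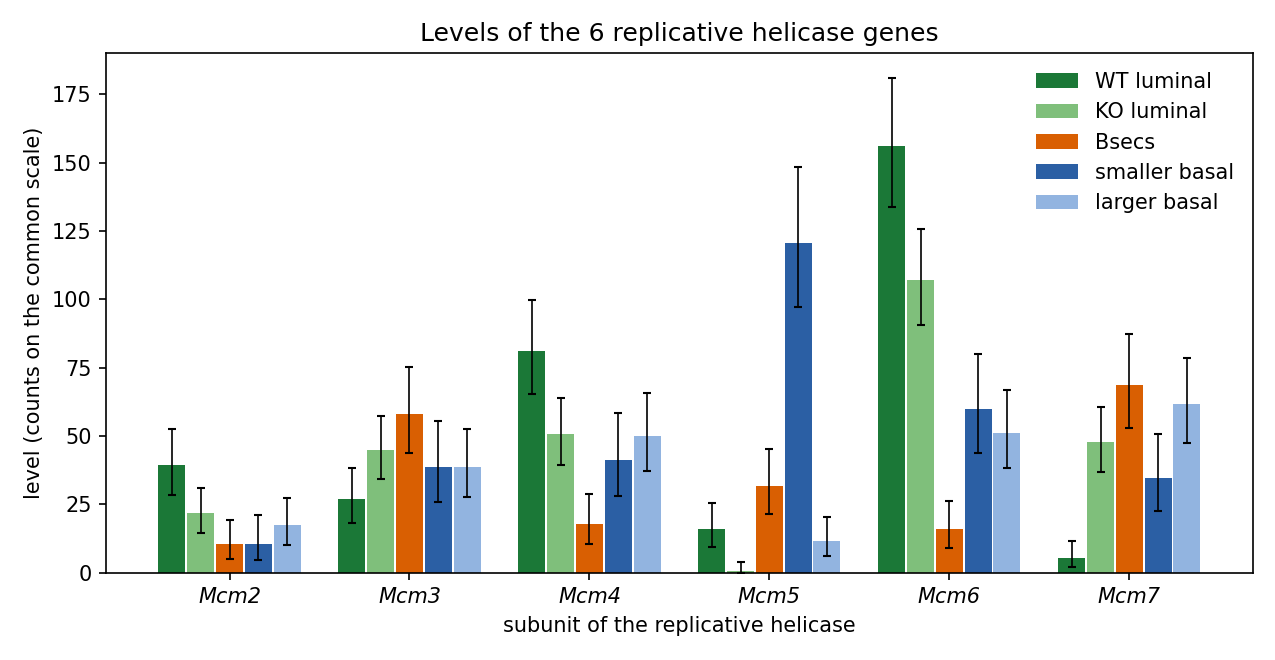
Levels (counts divided by median-of-ratios factors over the 5 columns) of the 6 replicative helicase genes, with 1 bar per sorted population and Poisson 95% intervals of counting error. Mcm2, Mcm4 and Mcm6 are highest in WT luminal cells, Mcm5 in smaller basal cells (121), and Mcm3 and Mcm7 in Bsecs.

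The helicase loaders Cdc6 and Cdt1 had few counts and the activator Gins2 more. Cdc6, which helps load it, had 18 counts in WT luminal cells and 0 or 1 elsewhere, and Cdt1, its partner in loading, had 12 in larger basal cells, 8 in KO luminal cells, 3 in WT luminal cells, 1 in smaller basal cells and 0 in Bsecs. Gins2, a part of the GINS complex that activates the helicase, had 79 counts in KO luminal cells, 45 in smaller basal cells, 34 in WT luminal cells, 18 in Bsecs and 6 in larger basal cells. As levels the first places changed, at 59.8 in smaller basal and 57.1 in KO luminal cells, with overlapping intervals. Gins2 shares exon sequence with Gse1 on the opposite strand, so these counts are uncertain.

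At the fork, Bsecs had the highest levels of Pcna and Fen1. Pcna, the sliding clamp, had 203 counts in Bsecs, 150 in larger basal and 66 in smaller basal cells, 83 in KO and 75 in WT luminal cells. Its level in Bsecs, 214 (185 to 245), stood above the larger basal column (144, 122 to 169), and the levels of the other 3 columns (60.01 to 87.6) overlapped in their intervals. Fen1, the flap endonuclease that trims Okazaki fragments, had 62 counts in Bsecs and 3 to 11 in the others. Its exons overlap those of Tmem258 and of an antisense gene. Rfc4, a subunit of the clamp loader, had 26 counts in WT luminal cells, 15 in larger basal cells and 2 to 4 elsewhere, and it overlaps Eif4a2. Ung, the uracil glycosylase, had 25 counts in larger basal cells, 23 in Bsecs, 7 in smaller basal cells, 2 in KO luminal cells and 0 in WT luminal cells. Its levels in Bsecs and larger basal cells were 24.2 and 24.0, with overlapping intervals. Pcna has processed pseudogenes in the annotation, as have Tyms, Ccnb1 and Ccnb2, and how reads shared with them were counted is not given in the sources used here.

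Of the nucleotide supply genes, the large subunit of ribonucleotide reductase was read and the small one hardly. Rrm1 had 42 counts in larger basal and 16 in smaller basal cells, 32 in KO and 28 in WT luminal cells and 14 in Bsecs, while Rrm2, whose product is made mainly in S phase, had 0 to 3 in every column. Tyms, thymidylate synthase, had 26 counts in Bsecs, 19 in WT luminal cells, 11 in KO luminal cells, 9 in larger basal cells and 0 in the smaller. The cyclins of the G1 to S step were near the floor, with Ccne1 at 2 counts or fewer in every column and Ccne2 at 13 in KO luminal cells and 0 to 6 elsewhere. Exons of Ccne2 overlap those of Ints8 on the opposite strand. E2f1, which drives S phase genes, had 2 counts in Bsecs, 1 in larger basal cells and 0 in the other 3.

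The genes at the core of mitotic control had few counts or none. Ccnb1 (cyclin B1) had 3 counts in WT luminal cells and 0 in the other columns, and its partner kinase Cdk1 had 6 there, 1 in KO luminal cells and 0 in Bsecs and both basal columns. The floor of 3 counts at which a 0 was placed is 0.929 to 1.76 CPM in these columns. Ccnb2 had 2 to 7 counts everywhere. Ccna2 (cyclin A2) had 8 in KO luminal cells, 5 in larger basal cells, 1 in Bsecs and in smaller basal cells, and 0 in WT luminal cells. Exons of Ccna2 overlap those of Exosc9 on the opposite strand. The Polo kinase Plk1 had at most 2. Aurka, the Aurora kinase of the spindle poles, had most of its counts in luminal cells, with 37 in WT, 16 in KO, 1 in Bsecs and 0 in both basal columns. Aurkb, the Aurora kinase of the centromere, had 9 counts in KO luminal cells and 0 elsewhere.

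The usual markers of dividing cells did not point to 1 population. Mki67, which coats mitotic chromosomes, had 34 counts in WT luminal cells and 26 in larger basal cells, against 3 in Bsecs, 3 in smaller basal cells and 2 in KO luminal cells. Top2a, the topoisomerase that untangles sister chromatids, had 27 counts in KO luminal cells, 8 in larger basal cells, 4 in WT luminal cells, 2 in smaller basal cells and 1 in Bsecs. KO luminal cells were thus among the lowest for Mki67 and highest for Top2a, where an snoRNA gene lies within the exons. Cdc20 and Ube2c, which act with the anaphase-promoting complex, had at most 2 and 3 counts.

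Genes of the spindle and kinetochore had low counts too, each with its own pattern. Kif11, the motor that separates spindle poles, had 36 counts in WT luminal cells, 8 in KO luminal cells and 1 in each of the others. Tpx2, which activates Aurka, had 16 in KO luminal cells, 12 in Bsecs, 1 in WT luminal cells and 0 in both basal columns. Its level was 12.6 in Bsecs and 11.6 in KO luminal cells, with overlapping intervals. The kinetochore motor Cenpe reached 10 counts in KO luminal cells and the kinetochore protein Cenpf 8 in WT luminal cells, both with 0 in smaller basal cells. Nusap1, a microtubule binder of the spindle, had at most 4. Its exons overlap those of a gene on the opposite strand, as do those of Cdc20, Ube2c and Plk1. Of the genes for cytokinesis, Kif23 had 19 counts in KO luminal cells, 15 in Bsecs, 5 and 1 in the smaller and larger basal columns and 0 in WT luminal cells. As a level it stood at 15.8 in Bsecs and 13.7 in KO luminal cells, with overlapping intervals. Birc5 (survivin) had 12 in WT luminal cells, 11 in larger basal cells, 7 in Bsecs and 0 in KO luminal cells and the smaller basal column.

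The spindle checkpoint genes differed widely in counts. Bub1 had 0 counts in all 5 columns and Bub1b at most 2, while Mad2l1, which binds Cdc20 to hold back anaphase, was the second most counted member. Mad2l1 had 1169 counts in WT luminal cells, 169 in KO luminal cells, 45 in Bsecs, 17 in larger basal and 2 in smaller basal cells. Its levels of 1043 (984 to 1105), 122 (104 to 142), 47.4 (34.6 to 63.4) and 16.4 (9.52 to 26.2) in the first 4 stood apart from each other, and the interval of the last, 2.66 (0.322 to 9.59), overlapped that of the larger basal column. In luminal cells Mad2l1 fell in the KO column by a factor of 8.68 (7.38 to 10.3), with a Benjamini-Hochberg adjusted p of 0.0433 (DESeq, the authors' deposited table; 3.82e-05 unadjusted). No other member, and none of the 146 further cell-cycle genes described at the end, passed that threshold there.

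Anln was the most counted member. It encodes anillin, an actin-binding scaffold of the cleavage furrow that also sits at epithelial cell junctions. Anln had 1514 counts in Bsecs, 561 in KO luminal cells, 183 in WT luminal cells, 5 in larger basal and 4 in smaller basal cells. Its levels of 1595 (1516 to 1677), 406 (373 to 441) and 163 (140 to 189) stood apart, and those of the basal columns, 4.81 (1.56 to 11.2) and 5.31 (1.45 to 13.6), overlapped. In Bsecs Anln rose over the larger basal column by a factor of 333 (142 to 1027), with a Benjamini-Hochberg adjusted p of 0.00462 (DESeq, the authors' deposited table). Over the smaller it rose by a factor of 298 (116 to 1095), with one of 0.0015 (DESeq, the authors' deposited table). Both comparisons use the same Bsecs column. Against luminal cells Bsecs had 4.05 times the KO value (3.67 to 4.47) and 10.2 times the WT value (8.73 to 11.9), neither past the adjusted threshold. Of the genes that work beside anillin in the furrow, Kif23 had 15 counts in Bsecs, and Ect2 and Racgap1 had 1 and 0.

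The promoters of Anln and Mad2l1 are shown beside that of Cdk1, a G2 and M phase gene whose window holds all 3 motifs searched, the E2F motif being found in no other G2 and M phase member, because these 2 members had counts unlike those of their group. Each is the RefSeq window from 250 bases before to 50 bases after the start, in build GRCm38.p6 (the submitters' processing notes name mm9 for the counts), at chr9:22389157-22389456 on the minus strand for Anln, chr6:66534971-66535270 on the plus strand for Mad2l1 and chr10:69352863-69353162 on the minus strand for Cdk1. Capitals mark the E2F motif (TTTCCCGC, TTTGGCGC or TTTCGCGC), the CHR (TTTGAA or TTTAAA) and the CCAAT box (CCAAT), searched on both strands; the letters of one motif can lie across another, and each was counted by itself.
Anln: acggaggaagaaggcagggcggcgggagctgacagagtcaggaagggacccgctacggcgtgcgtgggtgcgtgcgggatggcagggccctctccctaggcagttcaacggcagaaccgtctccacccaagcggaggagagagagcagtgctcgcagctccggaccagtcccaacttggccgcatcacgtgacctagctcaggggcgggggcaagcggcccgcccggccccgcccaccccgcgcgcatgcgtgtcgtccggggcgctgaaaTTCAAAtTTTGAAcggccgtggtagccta
Mad2l1: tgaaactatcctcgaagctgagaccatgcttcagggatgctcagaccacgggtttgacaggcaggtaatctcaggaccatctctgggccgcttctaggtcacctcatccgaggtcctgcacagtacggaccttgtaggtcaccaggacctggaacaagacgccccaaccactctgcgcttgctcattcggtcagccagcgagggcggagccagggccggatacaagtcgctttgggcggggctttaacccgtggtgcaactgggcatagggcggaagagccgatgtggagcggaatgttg
Cdk1: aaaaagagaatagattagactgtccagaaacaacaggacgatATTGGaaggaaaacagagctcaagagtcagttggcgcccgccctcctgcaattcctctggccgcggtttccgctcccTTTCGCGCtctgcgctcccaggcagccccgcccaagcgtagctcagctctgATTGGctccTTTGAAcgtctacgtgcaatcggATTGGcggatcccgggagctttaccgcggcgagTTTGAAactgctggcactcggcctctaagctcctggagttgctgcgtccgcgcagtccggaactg
The Cdk1 window holds 1 E2F motif, 2 CHR matches and 3 CCAAT boxes, 2 of the latter within 80 bases before the start. The Anln window holds 2 CHR matches just after the start and neither of the other motifs, and the Mad2l1 window holds none of the 3.

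Windows were found for 16 of the 19 S phase members (not Mcm4, Gins2 and Ccne2) and 19 of the 22 G2 and M phase members (not Ccna2, Aurkb and Tpx2). An E2F motif was present for 6 of 16 S phase members (37.5%; Mcm3, Mcm5, Mcm6, Mcm7, Cdc6 and Cdt1) and 1 of 19 G2 and M phase members (5.26%), against 1.84% of all 32851 windows. A CHR match was present for 16 of 19 G2 and M phase members (84.2%) and 5 of 16 S phase members (31.2%), against 27.6% of windows, and a CCAAT box for 15 of 19 (78.9%) and 8 of 16, against 37.4%. Apart from Mad2l1, the G2 and M phase members with no CHR match were Bub1 and Nusap1. Of the 4 helicase genes with an E2F motif, Mcm3 and Mcm7 had their highest level in Bsecs, Mcm5 in smaller basal cells and Mcm6 in WT luminal cells. A member was counted if any of its windows matched, and Mcm7 and Fen1 had 2 windows each. The shares over all windows count each window by itself. A match is a stretch of letters and does not show binding.

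The KO luminal and WT luminal columns were compared as headed. The source label of the KO libraries names WT mice and the deletion is unchecked, so no direction was read as a genotype effect. Mad2l1 was the 1 member of 41 past an adjusted p of 0.05, as were 0.0882% of 14736 genes. At an unadjusted p under 0.05 there were 2, Mad2l1 and Mki67 (p = 0.046, the authors' deposited table), beside 3.74% of all genes. Of the 11 members with at least 50 counts over both columns, Mcm7 was 8.76-fold higher (3.82 to 24.7) in the KO column and Mad2l1 lower, while 6.73% of 8769 genes with such counts were at least 4-fold apart. At 2-fold 4 members were apart, beside 28.1% of genes. With edgeR's exact test, Mad2l1 was again the 1 member called at an assumed dispersion of 0.16 (1.53% of all genes) and 0 members were at 0.4 (0.00679%). The next S phase members by size were Gins2, at 1.85 times (1.22 to 2.85), and Mcm2, at 0.543 times (0.330 to 0.884) the WT value. Aurka was at 0.344 times (0.179 to 0.635) and Anln at 2.44 times (2.06 to 2.90). The median log2 fold was -0.63 over 18 S phase members with a count and -0.37 over 20 G2 and M phase members, beside 0.10 over all genes. Over the other scales, pseudocount and count minimum these medians ran from -0.71 to -0.16 and from -1.47 to -0.28. Of the S phase members 12 were lower and 6 higher in the KO column, and of the G2 and M phase members 10 and 10. Basal markers were higher in the KO column for 7 genes and lower for 1 (967 counts in sum against 195). Their part in the members' values was not tested.

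Between the basal columns, 0 members passed the adjusted threshold, as 0.0274% of 14595 genes did, and 1 had an unadjusted p under 0.05 (Mcm5, 0.0167 in the authors' deposited table), as did 3.09% of all genes. By edgeR's exact test Mcm5 was the 1 member called at a dispersion of 0.16 (2.4% of all genes), and 0 members or genes were at 0.4 (0.0%). Of 8 members with at least 50 counts Mcm5 and Gins2 were higher in the smaller column, 10.6-fold (5.79 to 21.3) and 10.5-fold (4.47 to 30.1), where 9.08% of 7490 genes were at least 4-fold apart. The same 2 members made up the count at 2-fold, beside 34.8% of genes. Rrm1 was at 0.533 times (0.2799 to 0.969) and Pcna at 0.616 times (0.454 to 0.828). Every one of these 8 was an S phase member. Among G2 and M phase members with a count, 11 were lower and 3 higher in the smaller column, at a median log2 fold of -1.34, and among S phase members 12 and 6, at -0.74, beside -0.29 over all genes. The alternatives gave -1.43 to -0.57 and -0.89 to -0.12. Fibroblast markers moved with the columns, since all 8 were lower in the smaller column (347 counts in sum against 2622), as were 5 of 7 endothelial markers (61 against 249). Their part in the cell-cycle counts was not tested.

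Against the basal columns, Bsecs were compared to place them beside the basal lineage. Anln was the 1 member past the adjusted threshold in each comparison, as were 0.48% of 14986 genes (larger) and 0.759% of 13698 (smaller). With edgeR's exact test at 0.16, Fen1 was called with it against the larger column (8.52% of genes), and Fen1, Mad2l1 and Tyms against the smaller (10.2%), while at 0.4 Anln stood alone in both (0.574% and 1.08%). At 4-fold with 50 counts Fen1 joined it, 17.05-fold higher (6.33 to 64.5) than the larger and 12.2-fold higher (4.54 to 46.2) than the smaller column, where 17.3% of 7838 and 18.2% of 7359 genes were that far apart. At 2-fold 6 members were apart in either comparison, beside 42.2% and 42.5% of genes. Lower in Bsecs by less were Mcm6, at 0.311 times (0.163 to 0.561) and 0.262 times (0.136 to 0.4798) the values of the larger and the smaller, Mcm4, at 0.3596 times (0.195 to 0.632) the larger, and Mcm5, at 0.2596 times (0.166 to 0.396) the smaller. Mad2l1 was at 2.91 times (1.63 to 5.43) the larger column. S phase members had a median log2 fold of 0.51 (larger) and 0.27 (smaller), and G2 and M phase members of 0.07 and 1.29, beside -0.21 and 0.10 over all genes. The 0.07 turned to -0.11 when totals without Rn45s set the scale, and the S phase medians ran from 0.16 to 0.52 and from 0.09 to 0.56 over the alternatives. A pseudocount of 5 took the 1.29 to 0.53. Against larger basal cells, 7 of 8 fibroblast markers (467 counts in sum against 2622), 7 of 7 endothelial (9 against 249) and 4 of 5 pericyte markers (45 against 205) were lower in Bsecs, and against smaller basal cells 4 of 8 (467 against 347), 6 of 6 with a count (9 against 61) and 3 of 5 (45 against 69). Their part in the members' values was not tested.

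Against luminal cells, 0 members passed in either comparison, as 0.0405% of 14800 genes did against the KO and 0.21% (30 of 14304) against the WT column. At an unadjusted p under 0.05 there was 1 member against KO luminal cells (Fen1, p = 0.0363) and 2 against WT luminal cells (Mad2l1, p = 0.00507, and Anln, p = 0.0332), in the authors' deposited tables, as did 3.82% and 4.29% of all genes. By edgeR's exact test 5 and 11 members were called at a dispersion of 0.16, beside 11.1% and 13.8% of all genes, and 0 at 0.4, beside 0.0% and 0.741%. At 4-fold with 50 counts, 3 of 9 members were apart from KO luminal cells, Fen1 at 31.0-fold higher (10.1 to 154), Anln, and Mcm6 at 6.58-fold lower (3.86 to 12.05), beside 20.1% of 8476 genes. With TMM factors or totals without Rn45s 2 were, since Anln lies just past 4-fold. At 2-fold 7 were (47.6% of genes). Mad2l1 was at 0.399 times (0.281 to 0.558) the KO value. From WT luminal cells 6 of 10 were apart, beside 22.3% of 8202 genes, and 9 at 2-fold, beside 49.3%. Higher in Bsecs were Mcm7 at 13.3-fold (5.81 to 37.7), Anln, and Fen1 at 6.94-fold (3.62 to 14.6). Lower were Mad2l1 at 21.1-fold (15.7 to 29.1), Mcm6 at 9.48-fold (5.59 to 17.3) and Mcm4 at 4.35-fold (2.57 to 7.79). Pcna was at 3.67 times (2.83 to 4.795) the KO and 3.33 times (2.54 to 4.402) the WT value. The median log2 folds were 0.39 and 0.63 for S phase members and -0.90 and -0.76 for G2 and M phase members (the -0.90 became 0.35 over the 2 with 50 counts), beside -0.21 and -0.09 over all genes. A pseudocount of 5 gave 0.17 and 0.29 for S phase members and -0.31 and -0.31 for G2 and M phase members. The 4 Bsecs comparisons share the Bsecs column, so their values are not independent.

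**Figure D4:**
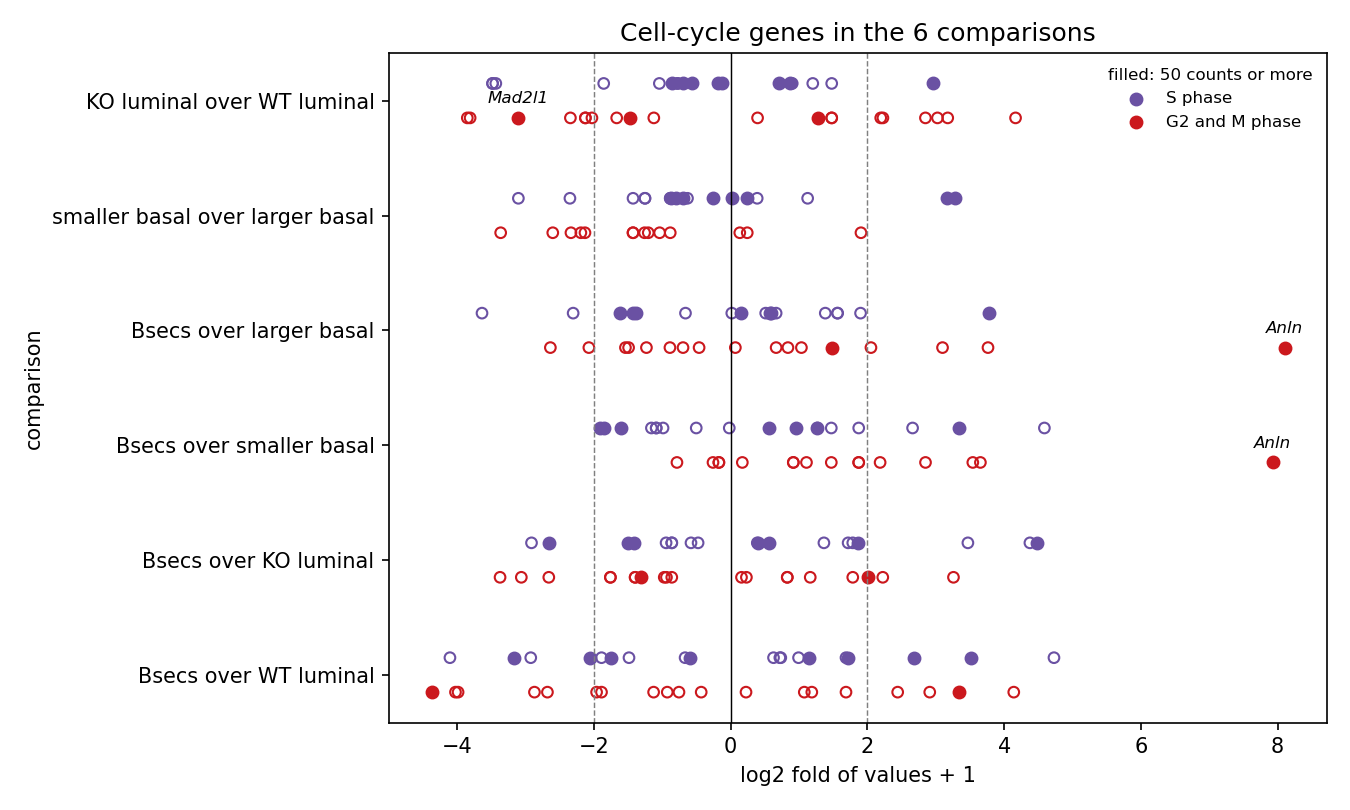
Log2 folds (values + 1) of the members with a count in each of the 6 comparisons, first-named column over second, with S phase members above and G2 and M phase members below each line. Filled points have at least 50 counts over both columns, dashed lines mark 4-fold, and the genes past an adjusted p of 0.05 are named; Anln lies far to the right in the comparisons of Bsecs with basal columns, and the other members spread to both sides of 0.

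Other cell-cycle genes were read from 6 further lists, with 146 genes matched. Of these, 1 passed the adjusted threshold when Bsecs were set against WT luminal cells and 0 in the other 5 comparisons (DESeq, the authors' deposited tables), where 0 to 5 had an unadjusted p under 0.05 (at most 3.85% of those with a count, beside 3.09% to 4.91% of all genes). By edgeR's exact test at a dispersion of 0.16, 1 to 16 were called per comparison (0.769% to 13.1% of those with a count, below the share of all genes in each comparison). That gene was Ccnd2, a D-type cyclin of the G1 phase, with 1531 counts in Bsecs, 581 in larger basal and 311 in smaller basal cells, 17 in KO and 0 in WT luminal cells (at least 628-fold higher, against 3 counts), Benjamini-Hochberg adjusted p 0.00838 (DESeq, the authors' deposited table). Cdkn1a (p21), an inhibitor of cyclin-dependent kinases, had 4572 counts in Bsecs, 1820 in KO and 689 in WT luminal cells, 791 in smaller basal and 230 in larger basal cells. It did not pass (21.9-fold over the larger basal column, 19.15 to 25.1; Benjamini-Hochberg adjusted p 0.689, DESeq, the authors' deposited table). Cdk6, which pairs with D cyclins, had 9 counts in smaller basal and 117 in larger basal cells.

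Other genes of licensing and origin firing were read in part. The origin recognition genes Orc2, Orc3 and Orc4 had 32 to 239 counts, but Mcm10 had 0 in all columns, Ticrr 0 in 4 of 5 and Gmnn, the inhibitor of Cdt1, 5 at most. Gins4 was 9.16-fold higher (3.35 to 35.05) in KO than in WT luminal cells, and Orc5 3.33-fold (short of the 4-fold rule). Of the fork and nucleotide list, Lig1, the ligase that joins Okazaki fragments, had 143 counts in KO luminal cells, 66 in WT luminal cells, 48 in Bsecs, 11 in smaller basal and 3 in larger basal cells (Bsecs over the last 17.6-fold, 5.67 to 88.3). Slbp, which binds histone messenger RNA, had 164 counts in Bsecs and 18 in WT luminal cells (11.2-fold, 6.88 to 19.4). Rpa1, a single-strand binding protein, had 8 in Bsecs and 77 in larger basal cells (8.75-fold lower, 4.23 to 20.99). In luminal cells 23 of 32 genes of this list were higher in the KO column (71.9%, median log2 fold 0.68), beside 7813 of 14733 genes (53%, median 0.10), while of the kinetochore list 13 were higher and 20 lower (median -0.28).

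Kinetochore, spindle and cytokinesis genes outside the members had fewer than 10 counts in every column for 23 of 37 genes, among them Ndc80 and Aspm. That was 62.2%, beside 24.3% of the 16673 genes with a count anywhere. The 4 of the 37 that reached 50 in some column were Zwint (66 to 246 counts), Bub3 (146 to 179), Ckap5 and Mad1l1. Mad1l1, the partner that recruits Mad2l1 to kinetochores, had 104 counts in WT luminal cells, 33 in KO luminal cells, 8 in Bsecs and in larger basal cells and 4 in the smaller, which puts WT luminal cells first as for Mad2l1. It was 10.6-fold lower (5.17 to 25.1) in Bsecs than in WT luminal cells, unadjusted p 0.0959 in the authors' deposited table. Tacc3, a spindle protein, had 42 counts in Bsecs and 1 to 10 in the others, and Ckap5, a microtubule polymerase with roles outside mitosis, 179 to 621. Of genes for mitotic entry and exit, Ccnf (cyclin F) had 55 counts in WT luminal cells and 1 in KO luminal cells (69.0-fold, 11.9 to 2776), the histone variant gene H2afz 52 in Bsecs and 1 in larger basal cells (57.2-fold, 9.82 to 2302), and lamin B1 (Lmnb1) 133 in KO and 16 in WT luminal cells (6.62-fold, 3.93 to 11.9), none past the adjusted threshold. Foxm1, the factor that drives many G2 and M phase genes, had at most 17 counts and Mybl2, its partner in that role, 0 in all columns.

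Among E2F and pocket proteins, Tfdp1, the dimer partner of E2F factors, had 229 counts in Bsecs, 97 in each basal column, 28 in KO and 10 in WT luminal cells (28.2-fold over WT luminal, 15.05 to 59.6). E2f3 had 75 counts in Bsecs and 9 in WT luminal cells (10.3-fold, 5.12 to 23.3), and Tfdp2 10 in Bsecs and 47 in smaller basal cells (5.97-fold lower, 2.98 to 13.25). The pocket proteins Rb1 (58 to 177 counts) and Rbl2 (18 to 110), which hold E2F genes off in resting cells, were read in every column, and Rbl1 had 0 to 21. Of the 12 leukocyte markers, read as a check on other cells that could divide within a sort, Cd68, Csf1r and Cd74 had the most counts. Cd68 had 63 in WT and 82 in KO luminal cells (6 to 21 elsewhere), Csf1r 17 and 76 (0 to 5 elsewhere) and Cd74 20 and 28 (1 to 18 elsewhere). Ptprc had 0 to 3 and Lyz2 0 to 6, and Cd3e, Cd3g, Ms4a1 and Emr1 were at 0 in all columns. Itgam had 9 in WT and 6 in KO luminal cells and 0 elsewhere, and Cd79a 9 in KO luminal cells and 0 to 2 elsewhere. Whether leukocytes were the source of these counts was not tested. The 12 leukocyte markers summed to 7.98 CPM in larger basal cells and to 63.5 in KO luminal cells. Fibroblast markers summed to 188 CPM in Bsecs and 1231 in larger basal cells. Their part in the counts of single members was not tested.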

How the data were processed

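RNA of 10 sorted libraries in 5 groups of 2 was extracted with TRIzol and made into cDNA with the Ovation system, per the labels' protocols. STAR, DESeq and mm9 are named in the submitters' processing notes; no counter, annotation or strand setting is given in the sources used here. Per the file headers, the authors deposited 6 tables with a mean signal per group (size-factor-normalised counts) and a p-value per gene. Every mean was a whole multiple of 1 step per column (100% of values within 0.01), so counts were recovered, and 5 distinct columns were followed by their counts. In every table the steps multiply to 1, as size factors over exactly 2 columns do, so replicate spread did not enter those p-values; whether a column pools both libraries is unknown. Columns of samples left unused numbered 0. Spreadsheet dates had replaced 27 symbols, none a member.

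The deposited p-values were adjusted by Benjamini-Hochberg over every gene of a table, with calls at 0.05. A plain rule of size, at least 4-fold with 50 counts over both columns, stands beside it. Fold intervals are Clopper-Pearson and level intervals exact Poisson, both 95% and for counting error only, because each group has 1 column. Amplified reads without molecular identifiers need not be independent, so these intervals may be too narrow. A count of 0 was placed at a floor of 3 counts. Log2 folds use values plus 1. Levels use median-of-ratios factors over the 5 columns. Members and lists were chosen with earlier results of these data known. Named genes were all members, those past the threshold, and up to 3 per list with the largest fold at 50 counts or more; other genes were named after their values were seen. Count recovery, fold intervals and the edgeR test were tested on simulated data. R 4.3.3 with edgeR 4.0.16, Python 3.11.15 and scipy 1.17.1 were used, and edgeR's exact test with assumed dispersions of 0.16 and 0.4 served as an alternative on the recovered counts (226, 350, 1276, 1403, 1649 and 1975 genes called at 0.16 over the comparisons).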

Additional observations from a re-analysis of the deposited data

How the results depend on the processing

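No paired analysis was possible because the tables carry no column per library, and leaving out single libraries was not possible for the same reason. With edgeR's exact test at a dispersion of 0.16, members called numbered 1 between the basal columns, 2 and 4 for Bsecs against the larger and smaller basal columns, and 5 and 11 against KO and WT luminal cells. At 0.4 it called 0 members between the luminal columns, where Mad2l1 was lost, and Anln still passed against both basal columns. Members at least 4-fold apart, 2, 2, 2, 2, 3 and 6 in the order luminal, basal, Bsecs against larger and smaller basal, KO and WT luminal, became 13, 5, 6, 4, 7 and 14 with 10 counts as the minimum (of 26, 16, 21, 16, 20 and 24 members, beside 13.5%, 16.9%, 23.9%, 25%, 25.8% and 28.7% of all genes) and 15, 9, 9, 4, 13 and 15 with none (of 38, 32, 34, 34, 39 and 38, beside 11.8%, 19.9%, 19.2%, 20.4%, 25.8% and 23.9%). At 2-fold they were 4 (luminal), 6, 6 and 7 (Bsecs against the basal columns and KO luminal). With totals without Rn45s and the 4-fold rule kept, 4 were apart for Bsecs against the smaller basal column. Mcm5 and Mcm6 then joined Anln and Fen1. Median log2 folds of G2 and M phase members became 4.80 and 7.93 against the larger and smaller basal columns when members had to have 50 counts, which left 2 genes and 1 gene. Totals without Rn45s shifted the log2 scale of the comparisons by -0.08 to -0.36, before 1 is added to the values.

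Summed levels depend on the denominator. With Rn45s in the total, S phase sums in the order WT luminal, KO luminal, Bsecs, smaller and larger basal were 215, 159.6, 151, 184 and 214 CPM, and G2 and M phase sums 551.5, 223 and 442 in the first 3. On the median-of-ratios scale they were 523, 443, 580.4, 497 and 487, and 1343, 620.3, 1702, 26.6 and 92.3. Without Pcna the S phase sums were 209, 164, 140.2, 180.5 and 167. Without Anln the G2 and M phase sums were 542, 91.98 and 41.1 in the first 3, and without Anln and Mad2l1, chosen after seeing the data, 62.7, 39.6, 23.0 and, in larger basal cells, 34.8. Of 130 alternative values 75 kept within their limits and 55 moved past them. The limit was a set ratio to the main value for counts of members, and the interval of the median for median folds. These totals therefore mix unlike limits. Members with counts of 0 to 37 have wide intervals; why their counts are low was not tested.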
